A study of Mus musculus with 4 samples.

Results

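The genes described here encode the proteins of the cytosolic ribosome in T cells of the mouse meninges and choroid plexus (CP). Members were chosen by symbol: every gene whose symbol is Rpl or Rps followed by a digit, without the S6 kinase genes (Rps6k) and the 9 symbols marked -ps, together with Rplp0, Rplp1, Rplp2 and Rpsa. This gave 86 of the 31053 genes, 34 with symbols of the small subunit and 52 with symbols of the large subunit. All 86 identifiers were found in the GENCODE annotation vM21 of GRCm38, all as protein-coding genes, and they lay on 19 chromosomes, with 4 on X.

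The study sorted CD4 and CD8 T cells by flow cytometry from meninges and CP of female C57BL/6 mice and sequenced them with a droplet kit that reads the 5′ ends of transcripts. The young mice were 10 weeks old and the aged mice 18 months old, and the labels name no treatment or genetic change. Each of the 4 libraries (young meninges, aged meninges, young CP, aged CP) pooled 5 mice, so there was 1 library per condition and no replicates, and no test across mice could be made. Age and library cannot be told apart in any comparison of aged with young. Intervals below are 95% exact intervals (Clopper-Pearson for shares, Poisson for summed counts) and cover counting error only.

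Ribosomal proteins and ribosomal RNA build the small subunit, which decodes the messenger RNA, and the large subunit, which joins amino acids. The messenger RNAs of these proteins are among the most abundant in a T cell, and in vertebrates they begin with a C followed by a run of C and T, the 5′ terminal oligopyrimidine (TOP) motif, through which their translation is raised when nutrient and growth signals are active. Naive T cells are small and make little protein, and they enlarge and build ribosomes once antigen activates them. Ccr7, a chemokine receptor that leads T cells to lymph nodes, is a marker of naive and central memory cells.

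The start sites of the members on which the results turn are shown because the TOP run is the sequence feature these genes are known to share. Each line gives 30 bases in the direction of transcription at or near the start that RefSeq lists on GRCm38.p6. Capitals mark the longest run that opens with C and goes on with at least 6 more C or T within 30 bases of that start. Where runs are equally long, the first is marked. The first 7 genes were lower past the fold in every comparison of aged with young cells by class. Of the last 5, Rps27l, Rps12, Rpl7a and Rpl38 had some of the highest ratios, and Rps27 is the relative of Rps27l. The marked run begins at -22 from the listed start in Rps27l and at 17 in Rpl10a, so the lines of these genes do not hold the start itself. In the line of Rps27l an unmarked run of the same length follows, nearer the listed start. Rplp0 and Rps28 had no such run.
Rplp0 (chr5:115559457-115559486, + strand): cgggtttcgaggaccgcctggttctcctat
Rps28 (chr17:33824543-33824572, - strand): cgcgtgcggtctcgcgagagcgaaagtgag
Rpl35a (chr16:33056469-33056498, + strand): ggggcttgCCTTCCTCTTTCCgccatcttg
Rpl10a (chr17:28328574-28328603, + strand): gcgctctgCCTTCTTTCCggtttccgcggc
Rpl35 (chr2:39005117-39005146, - strand): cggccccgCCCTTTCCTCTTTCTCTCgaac
Rpl28 (chr7:4792955-4792984, + strand): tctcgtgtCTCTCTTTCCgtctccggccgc
Rpl15 (chr14:18270969-18270998, - strand): ggagaaagCCTTCTTCCTTTCCTCTggcgg
Rps27 (chr3:90213629-90213658, - strand): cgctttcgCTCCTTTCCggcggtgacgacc
Rps27l (chr9:66946056-66946085, + strand): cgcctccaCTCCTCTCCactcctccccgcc
Rps12 (chr10:23787180-23787209, - strand): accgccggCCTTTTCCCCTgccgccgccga
Rpl7a (chr2:26910787-26910816, + strand): ccacaattCCCTCTTCTTTCTTTCTCCagc
Rpl38 (chr11:114668572-114668601, + strand): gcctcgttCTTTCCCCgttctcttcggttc

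A run of this kind lay within 30 bases of a listed start in 39 of the 66 members with a listed start, which is 59.1%. Over all 27025 genes with a listed start the share was 29.7%, and on the other strand it was 24.2% of members against 33.7% of all genes. Among 69 genes of mitochondrial ribosomal proteins, which are not known as TOP messages, 31.9% held one. A match is a run of letters near a listed start and not a mapped transcript end.

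Nearly all members were found in every library. A UMI, the tag that marks 1 captured transcript, was seen in T cells of each library for 84 of the 86 members, and Rpl3l (the heart and skeletal muscle form of Rpl3) and Rpl10l (the testis form of Rpl10) had none. Rpl39l, a testis form of Rpl39, had 12 UMIs over all T cells. Other members with few UMIs were Rps19bp1 with 463, Rps27rt, a retrogene copy of Rps27, with 478, Rpl7l1 with 646 and Rps27l, the p53-induced relative of Rps27, with 1621. Rps19bp1 fits the symbol rule but encodes a protein that binds Rps19 and is not itself part of the ribosome. Members have many near-identical copies in the genome, so reads can be shared with copies or lost, and Rps27 and Rps27rt in particular could not be told apart with certainty.

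After the study's limits on genes and mitochondrial UMIs and removal of called doublets, T cells were recognised by at least 1 UMI of a Cd3 gene (Cd3d, Cd3e, Cd3g), and they were called CD4 (a Cd4 UMI, none of Cd8a or Cd8b1), CD8 (the reverse) or neither (none of these). Only 12, 28, 4 and 7 cells of young meninges, aged meninges, young CP and aged CP lacked a Cd3 UMI. This left 989, 1378, 589 and 1061 T cells in the same order, whose median depths were 3190, 2284.5, 2965 and 2820 UMIs. B cell genes, which a T cell should lack, summed to 237, 156, 208 and 141 CPM (UMIs of a gene per 1000000 UMIs of all genes) in this order, mostly from Ighm, and the 7 macrophage genes summed to 6.67, 17.5, 14.4 and 42.8 CPM. Of these, Adgre1 was at 0 in each library, and Lyz2 was at 0.580, 6.58, 6.19 and 12.7 CPM. The macrophage sum of the 230 CD4 cells of aged CP was 193 CPM. The 5 fibroblast genes summed to under 1 CPM in each library. Haemoglobin genes summed to 222 and 355 CPM in young and aged meninges and to under 2 CPM in CP. The 5 naive markers summed to 2705 and 840 CPM in the young and aged meningeal library and to 2156 and 570 CPM in CP, while the 7 effector markers summed to 2834 and 10180 CPM and to 3489 and 10878 CPM. Their part in the results below was not tested beyond the split by Ccr7. Between 3 and 7 barcodes of a library also occurred in another library.

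Ribosomal protein genes gave a smaller share of the UMIs in aged than in young T cells in both tissues and in each class. In all T cells of the meninges the share was 36.3% (36.2 to 36.3) in young and 30.9% (30.9 to 30.9) in aged mice. The CP libraries held 37.4% (37.3 to 37.4) and 32.9% (32.8 to 32.9).

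CD4 T cells had the lowest shares and CD8 T cells the highest in each of the 4 libraries. The CD4 share was 33.7% in young and 28.5% in aged meninges, and 36.3% in young and 30.8% in aged CP. The CD8 share was 39.6% and 34.1% in the meninges and 38.6% and 34.4% in CP. Cells with neither call lay between, at 35.5% and 30.6% in the meninges and 37.0% and 31.9% in CP. The sort was for CD4 and CD8 T cells, so neither cells can include cells of either kind whose transcripts were missed, which was not tested. They numbered 481, 735, 269 and 358 in young meninges, aged meninges, young CP and aged CP, and 668, 902, 383 and 550 after thinning to 1000 UMIs. Their median depths of 2993, 2079, 2815 and 2357.5 UMIs were the lowest of any class. Aged minus young, the difference was -5.23, -5.46 and -4.88 percentage points for CD4, CD8 and neither cells of the meninges and -5.57, -4.19 and -5.16 points in CP, and each of these differences was wider than the counting intervals. Without cells that held a B cell gene UMI the difference in CD8 cells of CP was -2.10 points. Such a UMI was held by 47.5, 25.4, 44.5 and 27.4% of T cells in young meninges, aged meninges, young CP and aged CP. Leaving these cells out took the CD8 cells of CP from 160 to 90 in young and from 473 to 387 in aged mice. With cells thinned to 1000 UMIs the difference in CD4 cells of CP was -9.36 points. Thinning came before the cells were called, so it took these CD4 cells from 160 to 64 in young and from 230 to 105 in aged mice. Single cells varied far more than the pooled shares: the quartiles of young meningeal CD4 cells lay at 28.1 and 40.6% and those of aged ones at 22.5 and 32.3%, so the cells of both ages overlapped.

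**Figure D1:**
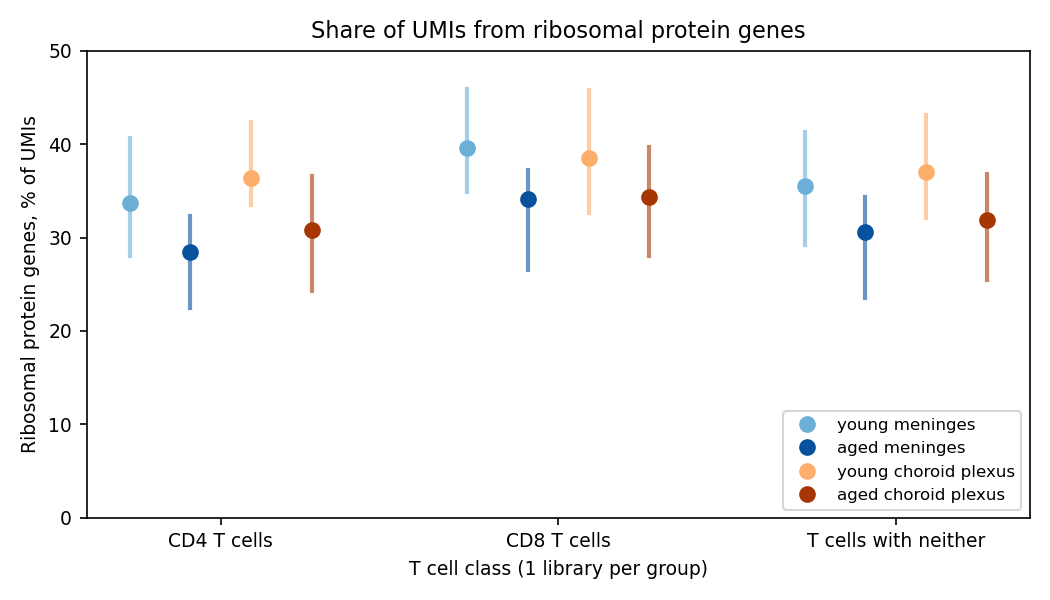
Share of UMIs from ribosomal protein genes (y axis, percent) in 3 classes of T cells (x axis), with a point for the summed UMIs of each library and a bar from the lower to the upper quartile of its cells. The aged point lies below the young point of the same tissue in all 3 classes, while the bars of young and aged cells overlap.

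The tissues differed less than the ages. Young CP exceeded young meninges by 2.63 points in CD4 cells and by 1.52 points in neither cells and the difference was -1.02 points in CD8 cells. Among aged cells CP was higher by 2.29, 0.257 and 1.24 points in CD4, CD8 and neither cells.

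The number of ribosomal protein UMIs per cell moved in the same direction. The median T cell of the meninges held 1181 such UMIs in young and 667 in aged mice, and 1996 and 1587.5 UMIs of other genes. In CP the ribosomal protein UMIs were 1157 and 931 while those of other genes were 1786 and 1818. In the meninges both numbers were thus lower in the aged library, and in CP only the ribosomal protein part was. Fewer captured transcripts and less RNA per cell cannot be told apart from these counts.

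The share differed with depth, and it rose steadily with depth only in the meninges. With the T cells of a library ordered by UMIs and split into 3 equal groups, the shallowest, middle and deepest cells had shares of 33.3, 36.9 and 37.2% in young meninges and 25.8, 29.9 and 33.3% in aged meninges. In young CP the shares were 34.7, 39.7 and 37.0%, and in aged CP 27.8, 34.1 and 33.9%. The shallowest cells had the lowest share in every library, and in each of these 3 groups the aged share lay below the young one of the same tissue. The groups were cut within each library and are not matched in depth. Their median UMIs were 2330, 3190 and 4339.5 in young and 1532, 2284 and 3688.5 in aged meninges, and 2166, 2954 and 4170 in young and 1813, 2807 and 4620.5 in aged CP. Within cells of 2000 to 4000 UMIs, a window chosen after the data were seen, aged minus young was -4.89, -6.37 and -4.11 points in CD4, CD8 and neither cells of the meninges and -6.03, -5.50 and -5.26 points in CP.

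The share was higher in Ccr7-positive than in Ccr7-negative T cells of the same library, in which preparation and sequencing are shared. Cells with at least 1 Ccr7 UMI had 39.5% against 31.4% in young meninges and 38.7% against 29.9% in aged meninges. The CP values were 40.1% against 34.0% in young and 37.3% against 32.2% in aged mice. The differences of 8.12, 8.88, 6.10 and 5.02 points had the same sign in each class, from 3.79 points in neither cells of aged CP to 11.8 points in CD8 cells of aged meninges. With cells thinned to 1000 UMIs the 4 differences were 3.90, 7.57, 3.40 and 6.09 points, and with Lef1 in place of Ccr7 they were 6.26, 4.08, 6.53 and 3.08 points. Ccr7-positive cells were also deeper, with a median of 3254.5 against 3077 UMIs in young meninges, 2895 against 2211.5 in aged meninges, 3021 against 2919 in young CP and 3779 against 2715 in aged CP. A Ccr7 UMI was seen as well in 23.8, 3.70, 20.6 and 6.09% of cells with a UMI of Cxcr6, a receptor of tissue-resident cells, in young meninges, aged meninges, young CP and aged CP. These were 46, 18, 26 and 31 cells, beside 588, 130, 319 and 105 Ccr7-positive T cells in the same order. They were a larger part of the Cxcr6 cells in the young libraries and of the Ccr7-positive cells in the aged ones. The split is thus not clean at either age.

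**Figure D2:**
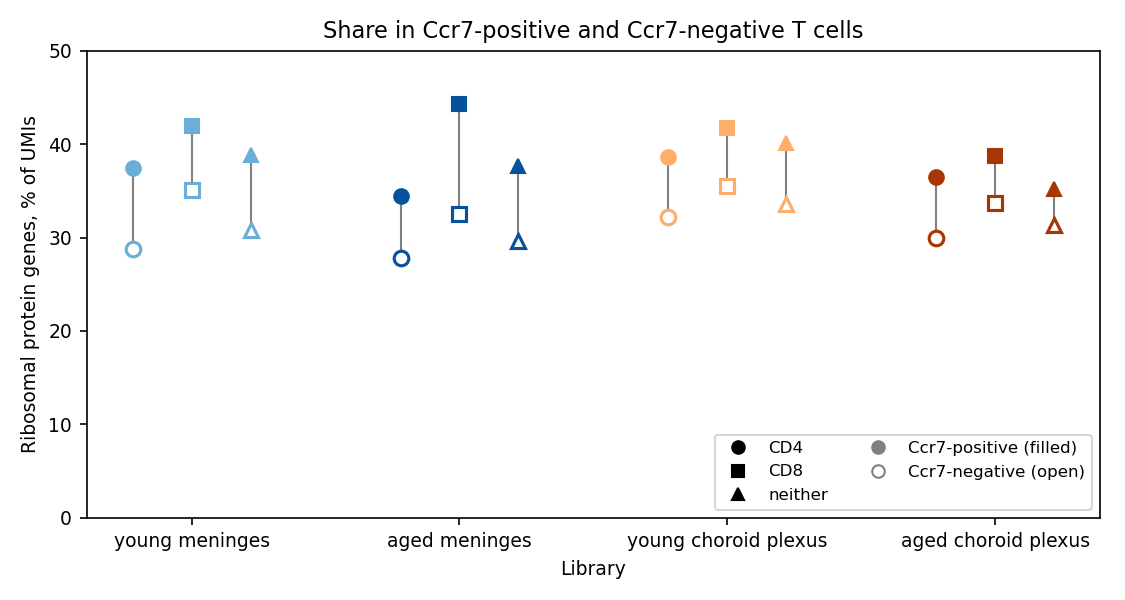
Share of UMIs from ribosomal protein genes (y axis, percent) in Ccr7-positive cells (filled) and Ccr7-negative cells (open) of each library (x axis), for CD4 cells (circles), CD8 cells (squares) and neither cells (triangles). Each filled point lies above the open point of the same class and library.

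The fraction of T cells that was Ccr7-positive was 59.5% (56.3 to 62.5) in young meninges and 9.43% (7.94 to 11.1) in aged meninges. The young and aged CP libraries had 54.2% (50.04 to 58.2) and 9.90% (8.17 to 11.9). With each cell thinned to 1000 UMIs the shares were 35.5, 4.75, 28.7 and 3.53%, with 13, 47, 9 and 24 shallower cells left out. Compared within a Ccr7 state at full depth, with at least 1 Ccr7 UMI as the gate, the ages differed by less than the whole populations did. Aged minus young was -0.795 points for Ccr7-positive cells of the meninges and -2.86 points for those of CP, and -1.56 and -1.78 points for Ccr7-negative cells. When the aged cells were given the young library's fraction of UMIs from Ccr7-positive cells, the difference over all T cells was -1.10 points in the meninges in place of -5.39, and -2.37 points in CP in place of -4.46. By class the same calculation gave -2.13, 0.680 and -1.16 points in CD4, CD8 and neither cells of the meninges and -2.19, -2.40 and -3.62 points in CP. It was made with this gate at full depth alone. It was not repeated with another gate or with thinned cells, for which the differences within a state were other ones, as given below.

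By class, 11 of the 12 comparisons within a Ccr7 state had a lower share in aged cells. Aged minus young, CD4 cells differed by -2.97 (Ccr7-positive) and -1.02 points (Ccr7-negative) in the meninges and by -2.10 and -2.35 points in CP. The values for neither cells were -1.17 and -1.14 points in the meninges and -4.90 and -2.15 points in CP. Ccr7-negative CD8 cells had -2.56 and -1.84 points in the 2 tissues. Ccr7-positive CD8 cells of the meninges went the other way, from 41.9% in 164 young cells to 44.3% in 25 aged cells, which had a median of 4856 UMIs against 3852. In CP the same cells went from 41.7% (76 cells) to 38.7% (45 cells). The values within a Ccr7 state depended on the gate and on depth. With Lef1, another naive marker, in place of Ccr7, aged minus young was -4.23 points in positive cells of both the meninges and CP and -2.05 and -0.770 points in negative cells. With cells thinned to 1000 UMIs the Ccr7-positive cells had -1.54 and -1.84 points and the Ccr7-negative cells -5.21 and -4.53 points. With at least 2 Ccr7 UMIs required, aged Ccr7-positive cells were higher than young by 1.46 points in the meninges and by 2.15 points in CP, and without cells that held a B cell gene UMI the Ccr7-negative cells of CP were higher in aged by 0.240 points.

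At the level of single genes, more members were lower than higher in aged cells, and most did not reach the fold used here. A gene was counted as lower or higher when it had at least 200 UMIs in both libraries together and its log2 ratio, aged over young on the log2(CPM + 10) scale, reached 0.3 in size. By this rule of size, which is no test, 24 of 80 measured members were lower in CD4 cells of the meninges and 1 was higher, where 14.6% of all 1226 genes measured were lower and 24.1% higher. For CD8 cells of the meninges 24 of 79 were lower and 0 higher (background 13.7 and 27.9% of 1118 genes), and for neither cells 22 of 80 were lower and 1 higher (14.4 and 23.8% of 2084 genes). In CP, 23 of 79 were lower and 0 higher in CD4 cells (12.6 and 28.3% of 707 genes), 11 of 80 lower and 1 higher in CD8 cells (8.19 and 24.1% of 1367 genes), and 18 of 80 lower and 1 higher in neither cells (11.3 and 27.7% of 1080 genes). The share of members lower was above the background and the share higher below it in each comparison. This background, here and below, includes the members themselves and was not matched to them in UMIs. Most members lay far above the minimum of 200 UMIs, and genes near it vary more by counting. CPM is relative to all UMIs, so where these genes hold a lower share the CPM of all others is higher.

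The shift was small and shared by most members. The median log2 ratio of members was -0.21, -0.17 and -0.17 in CD4, CD8 and neither cells of the meninges and -0.17, -0.11 and -0.15 in CP, beside medians over all genes measured of 0.09, 0.09, 0.06, 0.12, 0.11 and 0.12. The median in CD8 cells of CP was -0.042 without cells that held a B cell gene UMI, and those of CD8 and CD4 cells of CP were -0.16 and -0.37 with cells thinned to 1000 UMIs. Between 62 and 71 members lay below 0 in each comparison, where 35.1 to 42.8% of all genes did. Of the 79 members measured in all 6 comparisons, 54 were below 0 in each, 2 were above 0 in each and 23 were mixed, and 45 did not reach the fold in any. Over the 694 genes measured in all 6, 19.2% were below 0 in each and 36.7% above 0 in each. Scaled to the UMIs outside the ribosomal protein genes, which shifts the median of all genes by -0.09 to -0.12, the medians of members were -0.32, -0.30, -0.28, -0.29, -0.20 and -0.26, and 45, 39, 33, 39, 22 and 34 members were lower. The medians of all genes were then -0.014, -0.027, -0.038, 0.0010, 0.024 and 0.013. How many of all genes were lower past the fold on that scale was not counted for each comparison, so these numbers of members have no background. On that scale 72 of the 79 members were below 0 in each comparison, 0 were above 0 in each, and 21 were lower past the fold in each, where 27.5, 24.4 and 7.78% of the 694 genes were. The small subunit had medians from -0.25 to -0.11 and the large subunit from -0.18 to -0.11. The median of the small subunit was the lower one in each comparison, but the gap was small and was not tested. It was widest in CD4 cells of the meninges (-0.249 against -0.181) and narrowest in neither cells of the meninges (-0.175 against -0.172).

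**Figure D3:**
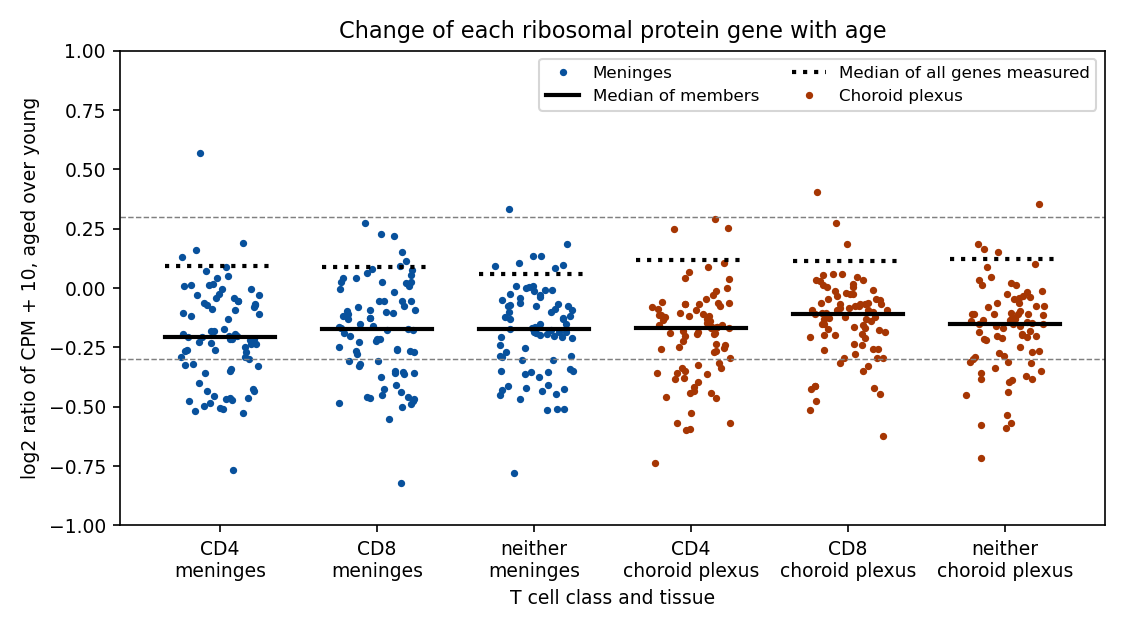
log2 ratio of CPM + 10, aged over young (y axis), of each ribosomal protein gene with at least 200 UMIs (points) in the 6 combinations of class and tissue (x axis). Solid lines mark the median of these genes, from -0.21 to -0.11, dotted lines the median of all genes measured, from 0.06 to 0.12, and dashed lines the fold of 0.3 in either direction.

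The 10 members that were lower past the fold in all 6 comparisons, where 5.04% of the 694 genes were, were Rplp0, Rps29, Rps20, Rpl35a, Rps28, Rpl10a, Rpl35, Rpl8, Rpl28 and Rpl15. The 3 classes of a tissue hold different cells of the same libraries, so these are 2 pairs of libraries and not 6. Rplp0, the protein that anchors the stalk of the large subunit to which translation factors dock, had the lowest mean ratio. Over all T cells the meninges had 10054 CPM (9948 to 10160) when young and 5773 CPM (5695 to 5851) when aged, and CP had 9358 CPM (9223 to 9495) and 6496 CPM (6411 to 6581). Both aged libraries lay below both young ones. Its log2 ratio was -0.77, -0.82 and -0.78 in CD4, CD8 and neither cells of the meninges and -0.57, -0.51 and -0.53 in CP.

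Rps29, a small subunit protein, had 13635 and 10142 CPM in young and aged meninges and 15282 and 9471 CPM in CP. Its log2 ratio was larger in CP (-0.74, -0.62 and -0.71) than in the meninges (-0.50, -0.31 and -0.45), the reverse of Rplp0. Rps20, also of the small subunit, had 8362 and 5839 CPM in the meninges and 9099 and 6449 CPM in CP, and a mean log2 ratio of -0.52 over the 6 comparisons. Rps28 went from 9933 to 7423 CPM and from 10978 to 7745 CPM. Again the aged libraries were the lower ones in each tissue.

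Rpl35a, a large subunit protein whose gene is mutated in some families with Diamond-Blackfan anaemia, had 6914 and 5087 CPM in young and aged meninges and 7433 and 5212 CPM in CP. Rpl10a had 3480 and 2398 CPM in the meninges and 3400 and 2634 CPM in CP. Rpl35, which sits near the exit of the peptide tunnel, had 5271 and 3866 CPM and 5541 and 4080 CPM. All 3 were lower in both aged libraries than in both young ones. Rpl8, which lies close to the peptidyl transferase centre, fell from 4983 to 3608 CPM in the meninges and from 4871 to 3751 CPM in CP, Rpl28 from 1960 to 1448 and from 2182 to 1651 CPM, and Rpl15 from 3315 to 2430 and from 3236 to 2544 CPM. Rps29, Rps28, Rplp0, Rps20 and Rps24 were the 5 members with the largest loss in percentage points in CP and made up 38.0% of the difference in share there. The same 5 members had the largest loss in the meninges and made up 29.04% of it.

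The genes of the stalk proteins differed in the size of their change. Rplp1 and Rplp2, the acidic proteins that bind Rplp0 in pairs, had mean log2 ratios of -0.19 and -0.06 beside -0.66 for Rplp0. Rplp1 was at 3219 and 2787 CPM in young and aged meninges and at 3383 and 3030 CPM in CP. Rplp2 was at 2670 and 2517 CPM and at 2818 and 2733 CPM. No comparison of Rplp1 or Rplp2 reached the fold.

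**Figure D4:**
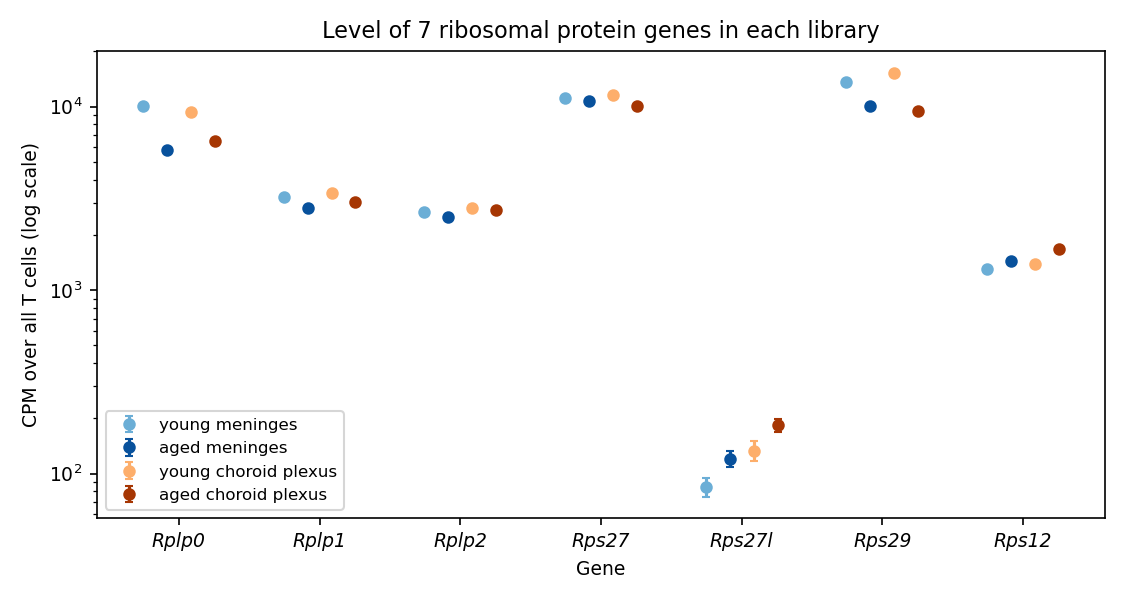
CPM over all T cells (y axis, log scale) of 7 ribosomal protein genes (x axis) in the 4 libraries, with 95% exact Poisson intervals for counting error, most of which are smaller than the points. Rplp0 and Rps29 are lower in both aged libraries, and Rplp1, Rplp2 and Rps27 are lower in them by less, with log2 ratios from -0.21 to -0.04. Rps27l (0.47 in the meninges and 0.43 in CP) and Rps12 (0.15 and 0.27) are higher in aged than in young cells of the same tissue.

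The members with the highest log2 ratios lay near or above 0. Rpl7a, a large subunit protein, was at 1258 and 1352 CPM in young and aged meninges and at 1173 and 1432 CPM in CP, with log2 ratios above 0 in all 6 comparisons and past the fold in neither cells of CP (0.35). Rps12, of the small subunit, was at 1304 and 1447 CPM and at 1387 and 1676 CPM, above 0 in all 6 with a mean of 0.20. Rpl38, which is known from the tail-short mouse mutant for its effect on Hox gene translation, had 5128 and 5812 CPM in the meninges and 5578 and 5918 CPM in CP. Rps21 and Rpl17 followed with mean log2 ratios of 0.06 each. Of these, Rps12, Rpl38, Rps21 and Rpl17 did not reach the fold in any comparison. Scaled to the UMIs of other genes, Rpl7a turned to -0.032 in CD8 cells and Rps12 to -0.022 in CD4 cells of the meninges. Rpl7a was then at 0.24 in neither cells of CP. On that scale Rpl38 was at 0.049, 0.10 and 0.079 in CD4, CD8 and neither cells of the meninges. In CP it was at -0.13, -0.035 and -0.010. Rps21 was at -0.060, 0.095 and 0.0011 in the meninges and at -0.19, -0.060 and -0.067 in CP. Rpl17 was at -0.064, -0.0093 and -0.095 in the meninges and at 0.13, -0.061 and -0.18 in CP.

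Compared by class, Rps27l was higher in aged cells, unlike its relative Rps27. In Ccr7-positive cells of the meninges, where it was under the count minimum, Rps27l had a log2 ratio of -0.54. Young and aged meninges had 84.4 CPM (74.9 to 94.6) and 120 CPM (109 to 132), and young and aged CP 133 CPM (117 to 150) and 183 CPM (169 to 198). Its log2 ratio was above 0 in all 6 comparisons and past the fold in 3 of the 4 where it was measured: 0.57 in CD4 and 0.33 in neither cells of the meninges and 0.40 in CD8 cells of CP. Scaled to the UMIs of other genes it stayed above 0 in each, at 0.48, 0.25 and 0.32 in these 3. Rps27 itself had 11190 and 10785 CPM in the meninges and 11569 and 10144 CPM in CP, with a mean log2 ratio of -0.13. The retrogene copy Rps27rt, under the count minimum, was at 36.5 and 37.5 CPM in the meninges and at 60.9 and 28.1 CPM in CP.

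**Figure D5:**
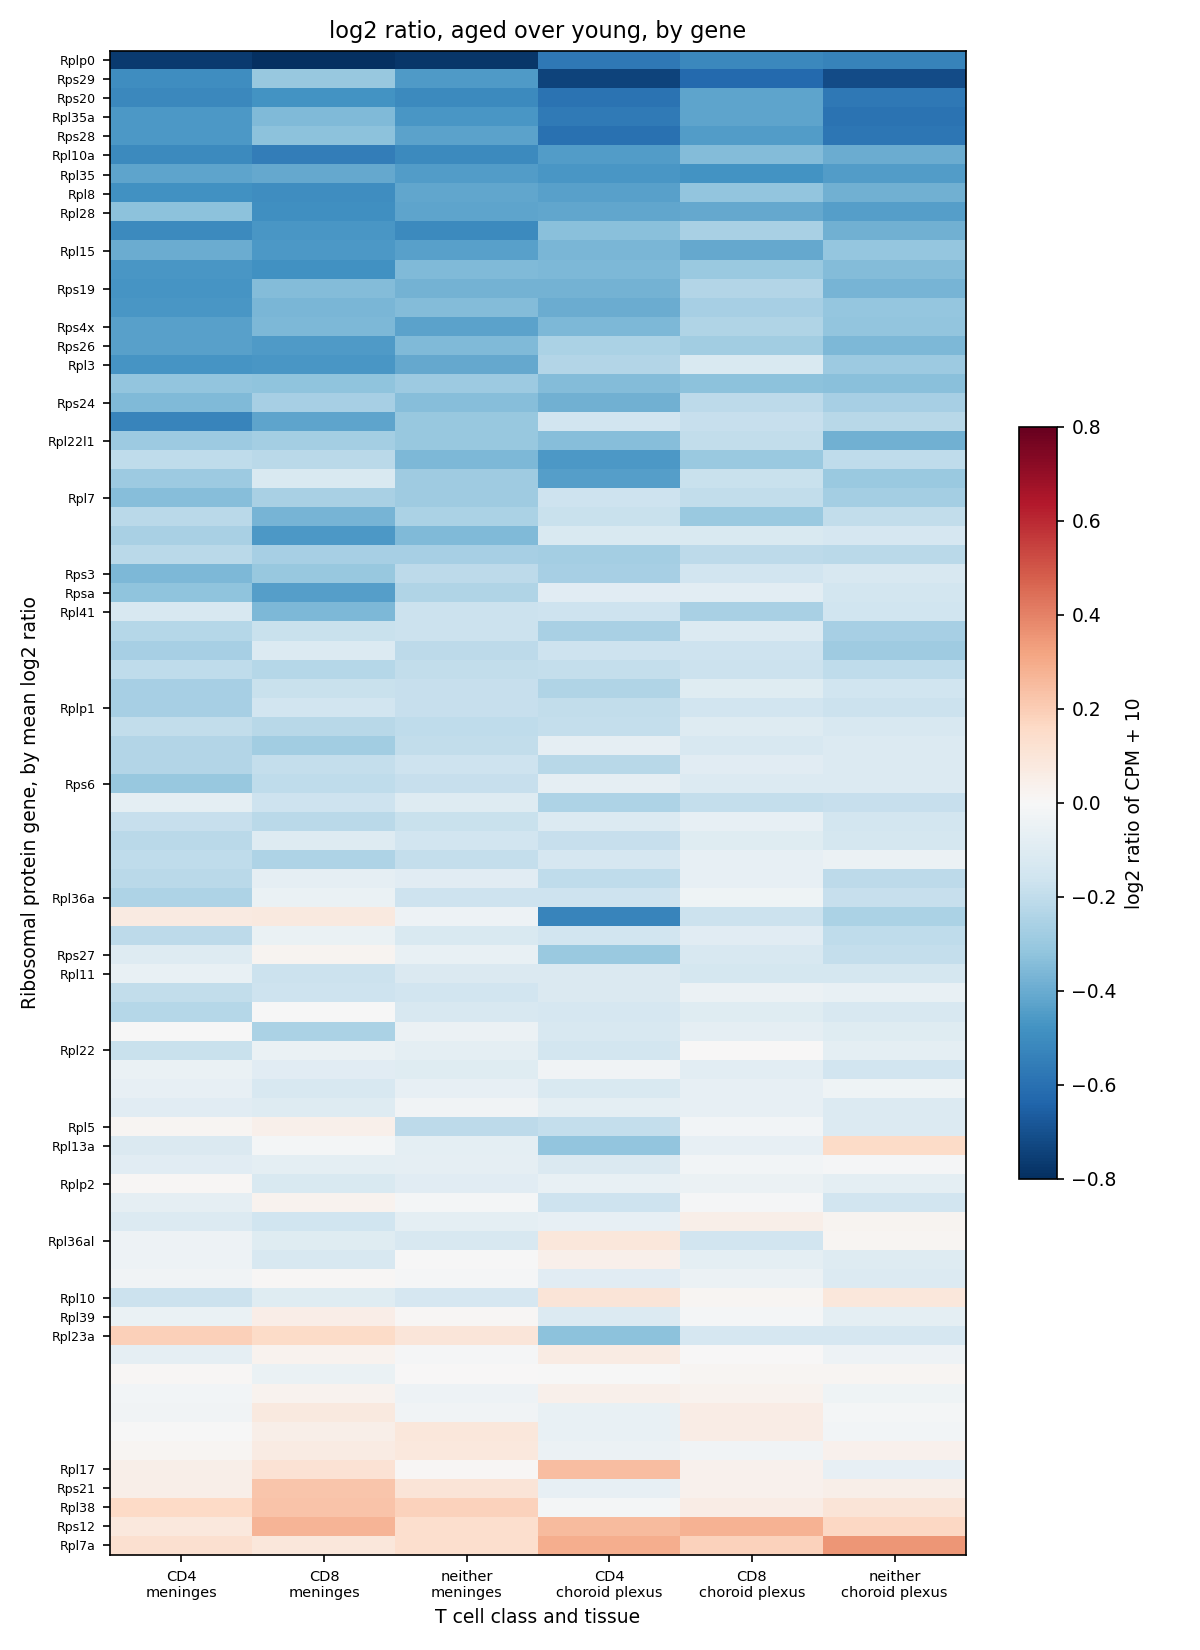
log2 ratio of CPM + 10, aged over young (colour), of the 79 ribosomal protein genes measured in all 6 combinations of class and tissue (columns), ordered by their mean (rows, with labels for genes named in the text). Genes at the top, from Rplp0 (-0.66) on, are lower in every column, and Rps12 and Rpl7a at the bottom (0.20 each) are higher in every column, although each turns below 0 in 1 column when scaled to the UMIs of other genes.

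Members with known roles beyond the ribosome lay within this range. Rps19, the gene most often mutated in Diamond-Blackfan anaemia, was lower past the fold in 5 of 6 comparisons (mean -0.36), as was Rps4x, encoded on X (mean -0.36). Rpl3 was lower past the fold in the meninges (-0.47, -0.46 and -0.41) and not in CP (-0.24, -0.12 and -0.29). Rpsa, also known as a laminin receptor, and Rps3 each reached the fold in 2 comparisons, with means of -0.22 and -0.24. Rps6, the target of the S6 kinases, reached it in 1, with a mean of -0.16. Rpl5 and Rpl11, which bind Mdm2 when ribosome assembly is disturbed, had means of -0.08 and -0.12 and did not reach it.

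Pairs of relatives also differed in size. Rpl22, which T-cell development needs, had a mean log2 ratio of -0.09 and its paralog Rpl22l1 one of -0.30, with 3 comparisons past the fold. Rpl36a and Rpl36al had -0.14 and -0.05. Rpl7 had -0.25, and Rpl7l1 was not measured in any comparison. Rpl10 and Rpl39 had -0.03 each, Rpl41, the smallest ribosomal protein, -0.21, and Rpl13a -0.07. Rpl13a reached the fold in CD4 cells of CP alone. Rps19bp1 was under the count minimum, at 31.9 and 39.5 CPM in young and aged meninges and 33.5 and 41.7 CPM in CP.

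Meninges and CP share no library, and the order of the members was alike in both. The labels do not say whether the 2 tissues of an age came from the same mice, so they may not be independent. Across members, the log2 ratios of the 2 tissues had a Pearson r of 0.69 in CD4 cells (79 members), 0.78 in CD8 cells (79) and 0.85 in neither cells (80). Genes are not independent replicates, and members share base composition, the 5′ kit and a common shift between the ages, so these are descriptions with no p.

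Between the Ccr7 states of a library, more members were higher than lower in Ccr7-positive cells. By the same rule of size, 35 of 80 members were higher and 1 lower in young meninges (background 9.27% higher and 32.8% lower), and 51 higher and 1 lower in aged meninges (7.85 and 39.2%). The young CP library had 21 higher and 2 lower (11.1 and 28.8%), and the aged CP library 12 higher and 1 lower (5.24 and 27.5%). Medians of the members were 0.28, 0.35, 0.19 and 0.18, beside medians over all genes of -0.18, -0.21, -0.12 and -0.13. Of 80 members measured in all 4 libraries, 69 were above 0 in each, where 15.1% of the 1070 genes measured in all 4 were.

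The 10 members past the fold in all 4 libraries, where 2.8% of the 1070 genes were, were Rps20, Rplp0, Rpl10a, Rps19, Rps28, Rpl35, Rps26, Rpl3, Rps4x and Rpl8. Rps20 was at 9667 CPM in Ccr7-positive and 6390 CPM in Ccr7-negative cells of young meninges and at 8946 and 5424 CPM in aged meninges, and at 10284 and 7678 CPM in young and 8552 and 6136 CPM in aged CP. Rplp0 had 11384 and 8046 CPM, 8572 and 5398 CPM, 10413 and 8092 CPM, and 8635 and 6178 CPM in the same order. The positive cells were the higher ones in each of the 4 libraries. Rps27l had the opposite difference, at 71.8 CPM in positive and 103 CPM in negative cells of young meninges, 46.4 and 130 CPM in aged meninges, 98.4 and 175 CPM in young CP and 145 and 189 CPM in aged CP. Rpl13a also lay below 0 in each library, with log2 ratios of -0.041, -0.11, -0.18 and -0.018 that did not reach the fold, as did Rps19bp1, which was under the count minimum. Scaled to the UMIs of other genes, Rpl13a was at 0.14, 0.085, -0.046 and 0.092, and Rps27l at -0.32, -1.19, -0.66 and -0.26.

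Within a Ccr7 state, few members reached the fold between the ages. In Ccr7-positive cells of the meninges 2 of 79 were lower and 2 higher (background 20.7 and 14.2%), and in those of CP 4 of 79 were lower and 2 higher (14.6 and 22.1%). In Ccr7-negative cells 6 of 81 were lower and 1 higher in the meninges (13.3 and 14.6%), and 9 of 81 lower and 0 higher in CP (9.34 and 16.8%). The background includes genes with far fewer UMIs than most members, which counting error can carry past the fold. Whether members changed less than genes of like counts was not tested. Medians of members were -0.02 and -0.06 in positive and negative cells of the meninges and -0.05 and -0.04 in CP. Rplp0 was lower in aged cells of both states, with log2 ratios of -0.41 (Ccr7-positive) and -0.57 (Ccr7-negative) in the meninges and of -0.27 and -0.39 in CP. Rps29 had -0.18 and -0.15 in the meninges and -0.61 and -0.50 in CP, and Rpl35a -0.24, -0.23, -0.46 and -0.36. Rps12 was above 0 in these 4 comparisons as well, at 0.31, 0.18, 0.30 and 0.23. Rps27l did not keep 1 direction, at -0.54 and 0.31 in the meninges and 0.52 and 0.11 in CP. Its values in Ccr7-positive cells rest on fewer UMIs than the count minimum.

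Other genes of translation were described by the same rule. Of all genes measured, 14.6, 13.7 and 14.4% were lower in CD4, CD8 and neither cells of the meninges and 12.6, 8.19 and 11.3% in CP. Higher were 24.1, 27.9, 23.8, 28.3, 24.1 and 27.7% in the same order, and these are the background of the counts below. Fau, which encodes a ribosomal protein fused to a ubiquitin-like protein and lies outside the symbol rule, had log2 ratios of 0.05, 0.02 and 0.07 in CD4, CD8 and neither cells of the meninges and -0.08, 0.00 and -0.01 in CP. Rack1, a scaffold protein on the small subunit, had -0.41, -0.41 and -0.25 in the meninges and -0.34, -0.12 and -0.45 in CP. Of the list of 6 ribosome-associated proteins to which it belongs, 1, 1, 0, 1, 0 and 2 were lower and 1, 1, 1, 1, 0 and 1 higher, and Naca and Btf3, the nascent polypeptide-associated complex, lay between -0.11 and 0.11.

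The list of 7 genes for elongation held Eef1a1, Eef1b2, Eef1d, Eef1g, Eef2 and Eif5a, and Tpt1 was counted with these factors. Its medians were -0.23, -0.31 and -0.23 in the meninges, where 3, 4 and 2 genes were lower. In CP they were -0.16, -0.09 and -0.16, where 1, 1 and 0 were lower. Counted as higher were 0, 1, 0, 1, 0 and 1 in the same order. Eef1b2, a subunit of the exchange factor for Eef1a1, had log2 ratios from -0.49 to -0.30 in the 6 comparisons. Eef1a1, which brings aminoacyl-tRNA to the ribosome, had -0.36, -0.31 and -0.28 in the meninges and -0.16, 0.02 and -0.16 in CP. Tpt1 had values from -0.29 to -0.10. Of 28 initiation genes, between 11 and 27 were measured and their medians lay between -0.16 and 0.05, with 5, 4, 5, 0, 1 and 2 lower and 1, 2, 0, 2, 3 and 3 higher. Pabpc1, the poly(A)-binding protein, had -0.73, -0.52 and -0.68 in the meninges and -0.17, -0.13 and -0.34 in CP, while Eif1 lay between 0.17 and 0.29.

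Genes of the mitochondrial ribosome had median ratios above 0. Of 78 genes, 12, 14, 32, 6, 24 and 13 were measured, 0 were lower and 4, 6, 7, 4, 4 and 5 were higher, beside 24.1, 27.9, 23.8, 28.3, 24.1 and 27.7% of all genes, with medians of 0.20, 0.28, 0.17, 0.51, 0.011 and 0.25 in the order above. Scaled to the UMIs of other genes the medians were 0.10, 0.16, 0.08, 0.40, -0.08 and 0.15, so the direction in CD8 cells of CP turned. The CPM median there also lay below that of all genes (0.11). The 3 with most UMIs did not go one way: Mrpl52 ranged from 0.54 to 0.77 and Mrpl33 from 0.11 to 0.54, while Mrpl30 was below 0 in all 6, from -0.26 to -0.14. Of 31 genes of ribosome biogenesis only 4 to 9 were measured, with medians from -0.29 to 0.16, 0, 0, 4, 1, 1 and 1 lower and 0, 1, 0, 0, 0 and 1 higher. Npm1, a nucleolar chaperone, had log2 ratios from -0.31 to -0.16, and Polr1d, a subunit of RNA polymerases I and III, from 0.07 to 0.36. Of 12 genes that control translation, 1 was measured in CD4 cells of the meninges, Max, and it was lower (-0.65). In neither cells of the meninges 3 were measured and 2 lower. Max (-0.62) and Eif4ebp2 (-0.57) were the lower ones, and Rps6ka1 (-0.22) did not reach the fold. In the other comparisons 0 were measured. Mtor and Myc, also on this list, were not measured in any comparison.

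Members with a pyrimidine run near their listed start did not stand apart in their change with age. The 36 measured in all 6 comparisons had a median of their mean log2 ratios of -0.15, from -0.48 to 0.20, and the 23 without a run one of -0.17, from -0.66 to 0.02. As a run is read from a listed start and not a mapped transcript end, this comparison cannot separate messages with and without the TOP motif. Of the 10 members lower in all 6 comparisons, Rps29, Rps20 and Rpl8 had no listed start in the table used.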

How the data were processed

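The authors deposited raw UMI counts per gene and cell, 1 matrix per library and without normalization. Cell Ranger 3.1.0 is named in the file headers, while the submitters' processing notes list Cell Ranger 5.1.0, STAR and mm10. Cells with fewer than 200 or more than 7000 genes or over 5% mitochondrial UMIs were left out, as in the study, and doublets were called per library with Scrublet (expected rate 0.8% per 1000 cells, seed 0), which removed 16, 0, 22 and 5 cells of young meninges, aged meninges, young CP and aged CP. The study used DoubletFinder. With no call in aged meninges, doublets can remain there. Libraries held 1111, 1695, 718 and 1277 cells and 3737140, 4262917, 2295950 and 3957717 UMIs. T cells positive for Cd4 as well as Cd8a or Cd8b1 (18, 30, 16 and 33) entered no class. Groups came from the labels.

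UMIs were summed per library, class and Ccr7 state and scaled to CPM of all genes, and log2 ratios were taken after adding 10 CPM. A gene was measured with at least 200 UMIs in both libraries together. The calculation was checked on simulated counts. With 1 library per condition no test was run. Genes named were those with known roles, the 5 lowest and 5 highest by mean log2 ratio, members past the fold in all 6 comparisons or against the members' median and, of other lists, the 3 with most UMIs. Some genes these rules select are not reported here. The members, lists, gates and rules were chosen with earlier results of these data known. Alternatives changed the doublet and mitochondrial limits, B cell UMIs, depth, shared barcodes, cell weights, denominator, Ccr7 gate, scaling, count minimum, fold and pseudocount. Positions came from GENCODE vM21 and start sequences from RefSeq (GRCm38.p6). Python 3.11.15 with numpy 2.4.6, scipy 1.17.1, pandas 2.3.3, scanpy 1.11.5 and matplotlib 3.10.9 was used.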

Additional observations from a re-analysis of the deposited data

Results flagged for a closer look

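The share of UMIs from ribosomal protein genes in Ccr7-positive CD8 T cells was higher in aged than in young meninges by 2.41 points and lower in aged than in young CP, with a difference of -2.99 points. This difference between the tissues was not tested, and the aged meningeal value rests on 25 cells.

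Of the members past the count minimum in every comparison, 2 had opposite directions in the 2 tissues in each class, with means of the tissues at least 0.2 apart on the log2 scale. Rpl23a, a large subunit protein near the tunnel exit, had log2 ratios of 0.19, 0.15 and 0.10 in CD4, CD8 and neither cells of the meninges and of -0.33, -0.13 and -0.13 in CP. Its levels over all T cells were 290 and 316 CPM in young and aged meninges and 394 and 361 CPM in CP. Rpl10 had -0.17, -0.10 and -0.13 in the meninges and 0.10, 0.013 and 0.089 in CP, with 1634 and 1477 CPM and 1574 and 1642 CPM over all T cells. Neither difference between the tissues was tested. Scaled to the UMIs of other genes, Rpl10 was below 0 in CP as well, at -0.016, -0.081 and -0.024, and Rpl23a was at 0.09, 0.031 and -0.0053 in the meninges, so Rpl10 lost the opposite signs in each class and Rpl23a in neither cells.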

How the results depend on the processing

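The shares were given in percentage points in a fixed order: aged minus young in CD4, CD8 and neither cells of the meninges and then of CP, Ccr7-positive minus Ccr7-negative in young meninges, aged meninges, young CP and aged CP, and aged minus young within Ccr7-positive and Ccr7-negative cells of the meninges and then of CP. The 6 differences of aged minus young by class were below 0 and the 4 of Ccr7-positive minus Ccr7-negative above 0 under each alternative run. With no doublet removal and no mitochondrial limit the first 6 were -5.60, -5.07, -5.22, -5.76, -4.73 and -5.96, the next 4 8.18, 8.70, 5.63 and 5.34 and the last 4 -1.17, -1.68, -2.90 and -2.61. With the top 5% of doublet scores removed the first 6 were -5.35, -5.50, -4.92, -5.95, -4.05 and -5.19, the next 4 8.26, 9.08, 6.10 and 5.07 and the last 4 -0.763, -1.59, -2.82 and -1.79. Without cells with a B cell gene UMI the first 6 were -4.04, -5.37, -4.77, -4.82, -2.10 and -4.49, the next 4 8.93, 9.003, 7.45 and 4.06 and the last 4 -0.363, -0.438, -3.15 and 0.240. With cells thinned to 1000 UMIs before they were called CD4, CD8 or Ccr7-positive the first 6 were -6.76, -7.00, -5.73, -9.36, -4.99 and -4.92, the next 4 3.90, 7.57, 3.40 and 6.09 and the last 4 -1.54, -5.21, -1.84 and -4.53. In cells of 2000 to 4000 UMIs, an alternative added after the data were seen, the first 6 were -4.89, -6.37, -4.11, -6.03, -5.50 and -5.26, the next 4 8.24, 6.48, 4.94 and 5.45 and the last 4 -2.06, -0.2999, -2.27 and -2.77. As means of the cells' own shares the first 6 were -6.28, -6.86, -5.74, -6.73, -4.81 and -6.08, the next 4 7.98, 8.64, 5.74 and 5.54 and the last 4 -1.75, -2.41, -3.03 and -2.83. With mitochondrial UMIs left out of the total the first 6 were -5.32, -5.64, -4.97, -5.84, -4.41 and -5.45, the next 4 8.46, 9.32, 6.49 and 5.23 and the last 4 -0.673, -1.53, -3.10 and -1.85. With at least 2 Ccr7 UMIs required, the 4 differences by Ccr7 were 7.86, 10.9, 5.80 and 9.73, and those within Ccr7-positive cells turned to 1.46 and 2.15 in meninges and CP. With Lef1 in place of Ccr7 the differences were 6.26, 4.08, 6.53 and 3.08, and -4.23, -2.05, -4.23 and -0.770 within the states. The differences within a Ccr7 state thus turned direction under 2 settings, the stricter Ccr7 gate and, for Ccr7-negative cells of CP, the removal of cells with B cell gene UMIs. The cause was not tested. The numbers of members lower in aged cells, in the order of the 6 comparisons, were 45, 39, 33, 39, 22 and 34 scaled to UMIs of other genes, 40, 35, 28, 39, 26 and 35 with median-of-ratios scaling, 36, 32, 26, 42, 15 and 17 after thinning and 23, 29, 18, 24, 19 and 20 in the depth window. At a log2 fold of 0.5 they were 5, 2, 4, 6, 2 and 5, and at a fold of 1 they were 0 in each, with no test or p to set beside them. The same counts over all genes were not made under these settings, so the numbers have no background. The count minimum, pseudocount, doublet, B cell and barcode alternatives kept these numbers within 1.5 times, and without shared barcodes all 14 shares moved by less than their counting interval. No paired analysis was possible because there was 1 library per condition and the replicate numbers only name the libraries, and for the same reason no library could be left out. Counting error is small at these depths, and variation between mice could not be measured.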

Other observations

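Cells left out for over 5% mitochondrial UMIs had low shares of ribosomal protein UMIs in each library: 19.2% in 60 cells of young meninges, 17.1% in 154 cells of aged meninges, 26.0% in 83 cells of young CP and 19.2% in 164 cells of aged CP, with medians of 1140, 863, 1317 and 1223 UMIs per cell. Called doublets had 34.4% in 16 cells of young meninges, 36.8% in 22 cells of young CP and 33.7% in 5 cells of aged CP.

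The 9 symbols marked -ps that the rule left out had few UMIs. Rpl9-ps6 had the most, at 23.5 and 20.5 CPM in T cells of young and aged meninges and 32.0 and 24.3 CPM in CP, and Rpl9-ps1 and Rpl36-ps4 had none. For Rpl10-ps3 the levels were 8.99, 8.49, 16.5 and 7.52 CPM in young meninges, aged meninges, young CP and aged CP.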
